A study of Mus musculus with 4 samples.

Results

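The comparison described here set a mouse pancreas that had been ligated by suture against a normal mouse pancreas, over all cells of each library rather than within cell classes. Its members were the cell barcodes with at least 500 unique molecular identifiers (UMIs, each standing for 1 captured RNA molecule), at least 250 genes and at most 20% mitochondrial UMIs. That rule kept 1772 of 1844 barcodes of the normal library and 1124 of 1165 of the ligated library, together 2896 of 3009, out of 44162 that pass the same filter in the 4 libraries of the series. The study asked how inflammation, the interleukin-1 (IL-1) receptor and the transcription factor NFAT act in fibroblasts of pancreatic cancer, and the remaining libraries came from KPC tumours, 1 control and 1 given AF12198, a peptide that blocks the IL-1 receptor IL1R1.

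The normal group was a pancreas for which no ligation is named, and the ligated group was a pancreas tied off with a suture to bring on pancreatitis. No agent is named for either group, and the labels used here give no strain, age, sex, allele or number of animals. Harvest is given as 4 weeks. Each tissue was digested with collagenases and made into a single 10x Genomics 3' library (v3 chemistry), so each group was 1 library, no difference has a replicate check and no p-value is given. Intervals are 95% and cover counting error only. Levels are given as CPM, the UMIs of a gene per 1000000 UMIs of the kept cells, and a gene was counted as higher or lower at 2-fold.

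Blocking the pancreatic duct holds back digestive enzymes and injures the gland. The enzyme-making acinar cells are known to shrink or die, while the ducts and the islets tend to outlast them. Injured cells call in neutrophils and then monocytes through chemokines, and IL-1 is an early signal of this kind. The receptor IL1R1 on stromal cells then drives genes such as those of interleukin 6 and the CXC chemokines through NF-kB. Fibroblasts answer injury by laying down collagen and other matrix, which ends in fibrosis when the injury lasts.

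The kept cells held 11241722 UMIs in the normal library and 5315805 in the ligated one, and the median cell had 1595.5 and 2216 UMIs from 800 and 1101 genes. Median mitochondrial shares were 2.18% and 1.25%. Gm42418, a locus where ribosomal RNA reads pile up, took 7.45% of the normal and 14.96% of the ligated UMIs. The 5% of cells with the most UMIs held 37.2% and 29.8% of all UMIs. Only 1 barcode was shared by the 2 libraries. Xist had 5 UMIs in each library, and the Y-linked Ddx3y was found in 25% of normal and 35.6% of ligated cells. Acinar cells, the bulk of an intact pancreas, were scarce in both suspensions: 2 normal and 10 ligated cells held at least 50 UMIs of Pnlip, the gene of pancreatic lipase.

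Of 12427 genes that had at least 10 UMIs over the pair of libraries and 5 CPM in 1 of them, 1724 stood at least 2-fold higher in the ligated library (13.9%) and 904 at least 2-fold lower (7.27%). The median log2 ratio over all these genes was -0.063. Neutrophil, macrophage, matrix and chemokine genes stood higher, and duct, insulin and neuronal genes lower. The neuronal list was drawn up after these values were seen. Its median log2 ratio was -2.54, but 0.85 without the 110 normal cells with at least 3 Vip UMIs. Scaling moved the balance between the directions: with Gm42418, its relative AY036118, mitochondrial genes and the acinar enzymes left out of the totals, 2062 genes stood higher and 658 lower. That made 75.8% of the called genes higher, against 65.6% with all UMIs in the totals.

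**Figure D1:**
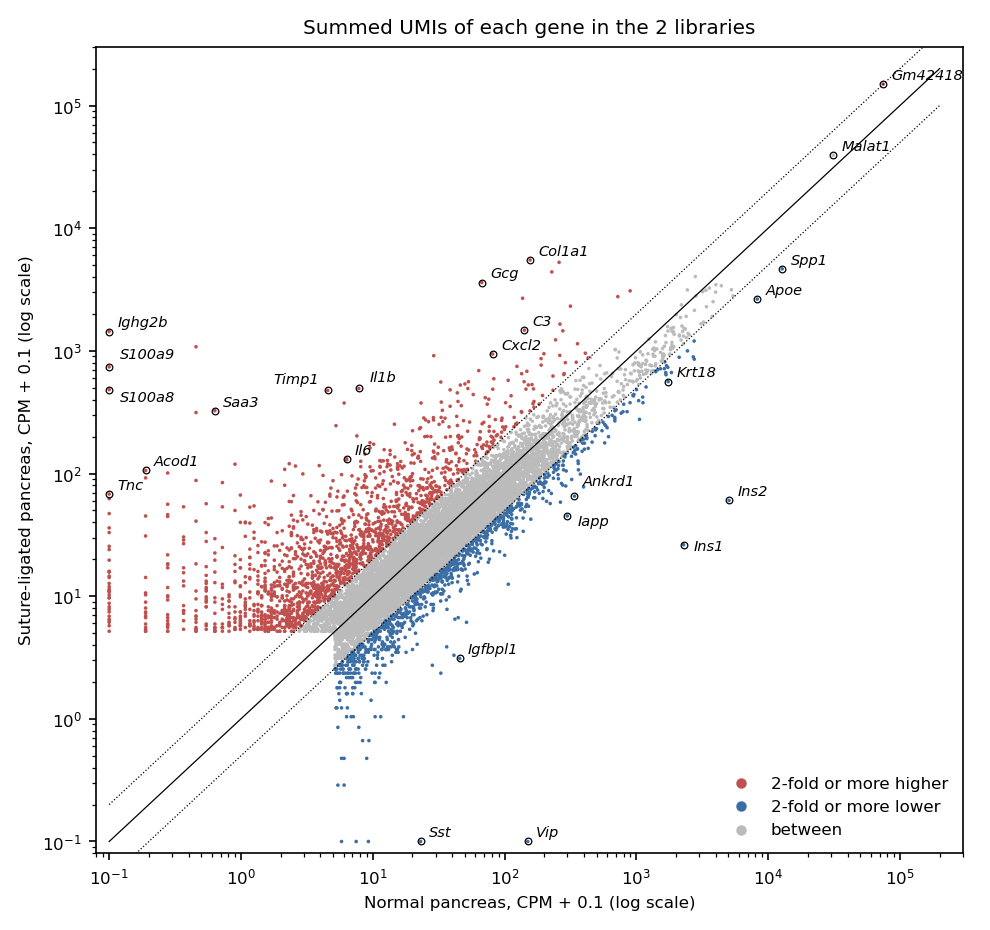
Each point is 1 of the 12427 genes, with its CPM in the normal pancreas on the x axis and in the ligated pancreas on the y axis, both with 0.1 added and on log scales; the solid line marks equal levels and the dotted lines 2-fold. S100a9, Saa3 and Il1b lie far above the line, and Vip, Ins2 and Ins1 far below it.

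Because the libraries differed in cell make-up, cells were also split by panels of marker genes for leukocytes (8 genes), epithelium (9), stroma (8) and endothelium (9). A cell entered a gate when it had at least 3 UMIs of that panel and these were at least 75% of its UMIs over the panels. A gate is a range cut from marker UMIs and not a cell type, and panel genes were left out of the values within gates. The leukocyte gate held 1.58% (1.05 to 2.28) of normal and 13.2% (11.2 to 15.3) of ligated cells, a ratio of 8.33 (5.54 to 13.0). Under a stricter cell filter (1000 UMIs, 500 genes, 10% mitochondrial) that ratio was 5.09. In the stromal gate the shares were 7.62% and 28.3% (ratio 3.71, 3.03 to 4.58). The epithelial gate held 52.1% and 25.4% (0.487, 0.425 to 0.557), and the endothelial gate 13.1% and 8.10% (0.618, 0.480 to 0.791).

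In no gate were 25.6% and 25.1% of cells, of which 368 normal and 171 ligated cells had too few panel UMIs and 86 and 111 were mixed. Under the stricter cell filter 51 of 1008 normal and 104 of 817 ligated cells were in no gate, a ratio of 2.52 (1.78 to 3.59). Cells near the limit, at under 85%, numbered 7 of 28 normal and 43 of 148 ligated leukocyte-gate cells, and 96 of 923 and 35 of 285 epithelial-gate cells. Mixed cells were not removed as doublets. By UMIs the epithelial gate weighed more, with 84.0% of the normal and 41.6% of the ligated UMIs, against 5.41% and 37.5% in the stromal gate.

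**Figure D2:**
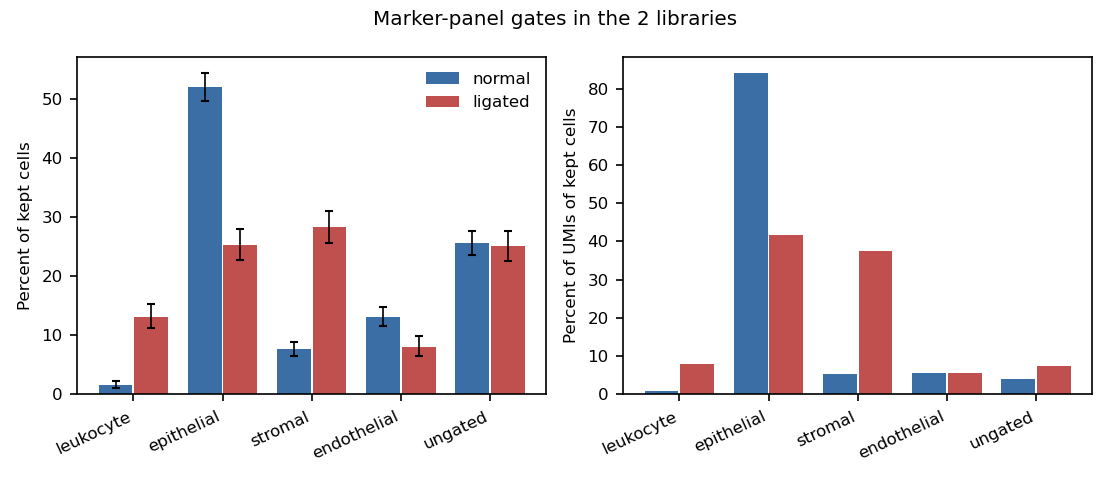
The left panel gives the percent of kept cells in each gate and in none, with exact 95% binomial intervals, and the right panel the percent of UMIs, for the normal (blue) and the ligated (red) pancreas. The epithelial gate holds 84.0% of the normal and 41.6% of the ligated UMIs, and the stromal gate 5.41% and 37.5%.

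Ranked by the interval bound nearest to equality, the 15 leading higher genes are known mostly from plasma cells, myeloid cells and stroma. S100a9, 1 chain of the neutrophil protein calprotectin, had 0 UMIs in the normal library and 740 CPM in the ligated one, at least 2773-fold higher if the floor is set at 3 UMIs. Its partner S100a8 went with it, at 0 and 483 CPM, at least 1809-fold higher. S100a9 was found in 0 of 1772 normal cells, which allows a share of up to 0.169%, and in 32.3% (29.6 to 35.1) of ligated cells. Free RNA in a suspension gives UMIs in cells that do not make a gene, so each share is read beside one from cells that should lack it. In the ligated epithelial gate S100a9 was found in 25.6% of cells, at a median of 5171 UMIs, against 53.4% in the leukocyte gate at a median of 1621. With each cell thinned to 500 UMIs these shares were 5.61% and 38.5%.

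Other leading myeloid genes were near 0 in the normal library. Acod1, the enzyme that makes itaconate in activated macrophages and neutrophils, was at 0.0890 and 106 CPM (1188-fold, 212 to 47026). Slfn4, an interferon- and myeloid-linked gene, was at 0 and 62.3 CPM, at least 233-fold higher, and Clec4e, a receptor for fungal and mycobacterial lipids, at 0.356 and 87.7 CPM (246-fold, 95.6 to 908). Serpinb2, a plasminogen activator inhibitor, was at 0 and 47.0 CPM, at least 176-fold higher. Slpi, a protease inhibitor that restrains neutrophil elastase, was at 0.356 and 314 CPM (883-fold, 344 to 3244), with 852 of its 1670 ligated UMIs in a single cell. Without the 5 richest cells of each library its levels were 0 and 96.5 CPM.

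Immunoglobulin genes led the ranking but rested on few cells. Ighg2b, a heavy chain gene of class-switched plasma cells, was at 0 and 1438 CPM, at least 5387-fold higher, and 5318 of its 7642 UMIs came from a single cell. Without its 5 richest cells its ligated level was 32.9 CPM. For Ighg1 the levels were 0.356 and 1080 CPM (3035-fold, 1185 to 11144), with 4004 of 5741 UMIs in 1 cell. Only 11 ligated cells held at least 50 UMIs of the light chain gene Igkc. All 11 held Jchain, the chain that joins antibody units, and Ighg1 as well, and 10 held Mzb1, an endoplasmic reticulum gene of plasma cells. Beside them, Igkc was found in 37.2% of ligated epithelial-gate cells.

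The stromal genes among the leading 15 were Saa3, Tnc, Sfrp2, Col24a1 and Thbs4. Saa3, an acute-phase serum amyloid made by injured stroma and myeloid cells, was at 0.534 and 325 CPM (609-fold, 279 to 1662). Tnc, the injury-linked glycoprotein tenascin C, was at 0 and 67.9 CPM, at least 254-fold higher. Without the 5 richest cells the ligated levels of Saa3 and Tnc were 118 and 36.1 CPM. Sfrp2, a secreted modulator of Wnt signals, was at 0.178 and 101 CPM (567-fold, 156 to 4692). Col24a1, a minor fibrillar collagen, had 0 and 35.9 CPM, at least 135-fold higher. Thbs4, a matrix thrombospondin, had 0 and 32.9 CPM, at least 123-fold higher, but 133 of its 175 UMIs were in 1 cell.

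The 15 leading lower genes were mostly peptide hormone, neuronal and epithelial genes. Vip, the gene of vasoactive intestinal peptide, had 1684 UMIs in the normal library (150 CPM, in 11.3% of cells) and 0 in the ligated one, at most 0.00377 of the normal level. Insulin followed: Ins2 was at 5047 and 60.2 CPM (0.0119 of the normal level, 0.0107 to 0.0133) and Ins1 at 2282 and 26.1 CPM (0.0115, 0.00963 to 0.0135). Sst, the gene of somatostatin, was at 22.95 and 0 CPM (at most 0.0246 of normal), with 148 of its 258 normal UMIs in 1 cell. Igfbpl1, Lce6a, Apcs, Ankrd1 and Apoc1 stood between 0.0661 and 0.195 of their normal levels, and between 91.4% and 100% of their UMIs in either library lay in the epithelial gate. Snap25 and Snhg11, both neuronal, were at 28.2 and 2.63 CPM and at 41.2 and 3.198 CPM. Ighm, the heavy chain gene of unswitched B cells, was at 107 and 12.4 CPM, but 705 of its 1198 normal UMIs lay in 1 cell. Without the 5 richest cells of each library Ighm was at 4.37 and 7.98 CPM, the other way round.

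Most leukocyte lists stood higher. All 13 neutrophil genes that passed the filter stood higher, with a median log2 ratio of 4.87, as did all 8 pan-leukocyte genes (3.27) and all 6 monocyte genes (2.66). The 8 pan-leukocyte genes are panel genes, so their levels and the share of the leukocyte gate rest on the same UMIs. Of 14 macrophage genes 13 stood higher (median 3.06). Of 16 T cell genes 7 passed and 6 stood higher (2.63), and of 12 plasma cell genes 8 passed and 6 stood higher (3.0). B cell genes did not share this, with 3 of 10 passing, 1 higher and 1 lower. With no filter on low counts the T cell and plasma cell medians were 1.10 and 1.22. With the UMI share of each gate held equal, the pan-leukocyte, monocyte, macrophage and T cell medians were 0.76, 0.65, 0.69 and 0.71. The neutrophil and plasma cell medians were 4.12 and 1.40 on that scale. A gene near 0 CPM in the normal library passes the filter only through its ligated level, so it could hardly be called other than higher. Csf3r, the receptor for the neutrophil growth factor, was at 0.445 and 56.6 CPM (127-fold, 54.0 to 395). Ptprc, the gene of CD45, was at 9.61 and 105 CPM (10.9-fold, 8.86 to 13.5). Lyz2, the myeloid lysozyme, was at 33.0 and 382 CPM (11.6-fold, 10.4 to 13.0). The exception among macrophage genes was Apoe, a lipid carrier, at 8262 and 2642 CPM (0.320 of normal, 0.314 to 0.325). In the normal library 97.0% of the Apoe UMIs lay in epithelial-gate cells.

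**Figure D3:**
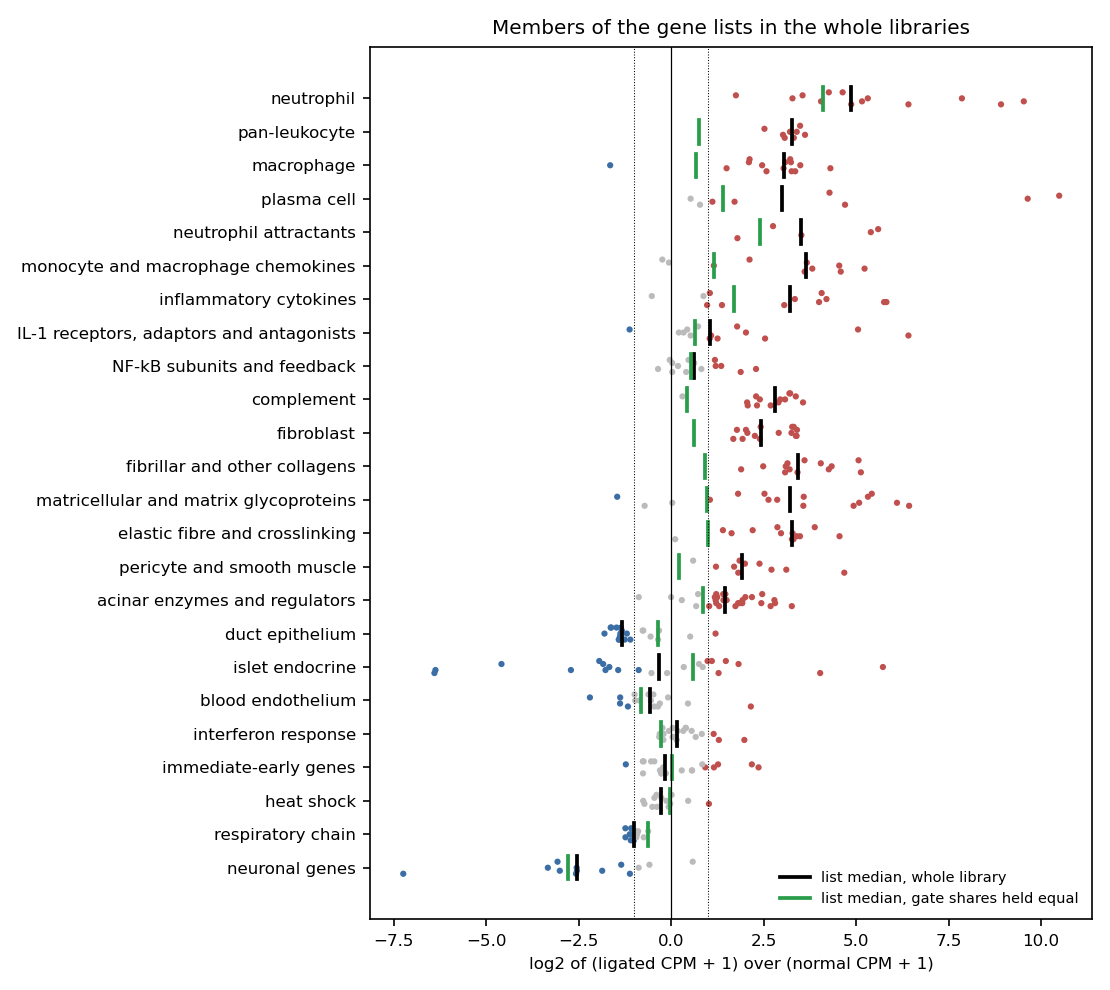
Each point is a list member that passed the count filter, at its log2 ratio of (CPM + 1), ligated over normal, red where it stood at least 2-fold higher, blue where at least 2-fold lower and grey between; black bars are list medians and green bars the medians with gate shares held equal. Neutrophil genes reach the highest medians on both scales, and the collagen median is 3.42 on the first scale and 0.93 on the second. The neuronal list was drawn up after these values were seen.

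The IL-1 family was followed because the study is about this pathway. Its ligand gene Il1b was at 7.74 and 493 CPM (63.7-fold, 51.5 to 79.8) and was found in 1.24% and 27.7% of cells. In the ligated library it was found in 64.2% of leukocyte-gate and 20.7% of epithelial-gate cells, and in 52.0% and 2.11% after thinning. Il1a, the ligand released by injured cells, was at 0 and 7.34 CPM, at least 27.5-fold higher. Il33, a nuclear alarm signal of stroma, was at 4.09 and 50.8 CPM (12.4-fold, 9.05 to 17.4). Il18, the inflammasome-processed relative, went the other way without reaching 2-fold, at 10.1 and 6.77 CPM (0.668 of normal, 0.446 to 0.979).

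Of 14 genes for IL-1 receptors, adaptors and antagonists 8 stood higher and 1 lower (median 1.06). Among genes that restrain IL-1, Il1rn, which encodes the natural receptor antagonist, was at 2.49 and 115 CPM (46.1-fold, 31.6 to 70.0). Il1r2, the decoy receptor, was at 0.0890 and 92.0 CPM (1034-fold, 185 to 40928). The signalling receptor Il1r1 was at 31.8 and 77.3 CPM (2.43-fold, 2.11 to 2.81) and its partner Il1rap at 8.72 and 38.6 CPM (4.42-fold, 3.46 to 5.69). Among receptors of related ligands, higher genes were Il1rl2 at 19.0-fold (9.89 to 41.0), Il18rap at 26.2-fold (10.7 to 83.6), Il1rl1 at 4.17-fold (2.79 to 6.34) and Il18r1 at 2.24-fold (1.58 to 3.18). For Il1rl1, 39 of 75 ligated UMIs lay in 1 cell. The lower member was Sigirr, a receptor that damps this signalling, at 32.6 and 14.5 CPM (0.444 of normal, 0.342 to 0.569). The 5 members between were the adaptor and kinase genes Myd88, Irak1, Irak2, Irak4 and Traf6, at 1.17-fold to 1.69-fold.

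Most UMIs of the ligand gene and of its receptor gene lay in different gates. Of the Il1b UMIs of the ligated library 77.7% were in the leukocyte gate and 3.13% in the stromal gate. Of the Il1r1 UMIs 73.5% were in the stromal gate, and neither library had an Il1r1 UMI in the leukocyte gate. Il1r2 had 76.3% of its ligated UMIs in the leukocyte gate. In the ligated library 122 cells held at least 3 Il1b UMIs, 72 of them in the leukocyte gate and 43 in no gate. Of these 122 cells 89 held S100a9, 78 Il1r2, 82 Il1rn, 76 Csf3r and 109 the chemokine Cxcl2. Among the other 1002 ligated cells S100a9 was in 274, Csf3r in 35 and Il1r2 in 42. The normal library had 6 such cells, all in the leukocyte gate, and none held S100a9 or Csf3r.

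Chemokines that attract neutrophils and monocytes stood higher, and those that attract lymphocytes mostly did not. All 5 neutrophil attractants that passed stood higher (median 3.52), as did 8 of the 10 monocyte and macrophage chemokines that passed (3.64). Of 16 inflammatory cytokines 12 passed and 10 stood higher (3.203). With no filter on low counts these medians were 3.14, 2.87 and 1.21, in that order. Of 9 lymphocyte and dendritic cell attractants 1 stood higher and 2 lower (median 0.17). Cxcl2 was at 81.0 and 942 CPM (11.6-fold, 10.8 to 12.5), and Cxcl1 at 151 and 527 CPM (3.48-fold, 3.28 to 3.70). Both bind the neutrophil receptor CXCR2. Cxcl3 was at 0.0890 and 45.0 CPM (505-fold, 89.9 to 20046) and Cxcl5 at 0.178 and 56.1 CPM (315-fold, 86.5 to 2614), with 67.4% and 73.8% of their ligated UMIs in 5 cells.

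The monocyte chemokine Ccl2 was at 7.47 and 203 CPM (27.1-fold, 21.7 to 34.3). Ccl7, which shares its receptor, was at 2.22 and 120 CPM (54.0-fold, 36.2 to 84.0). Il6, the cytokine that drives the acute-phase response, was at 6.23 and 132 CPM (21.2-fold, 16.5 to 27.5). Ptgs2, the inducible cyclooxygenase, was at 5.96 and 375 CPM (63.0-fold, 49.4 to 81.6). Il17a, which sustains neutrophil recruitment, was at 0 and 15.8 CPM, at least 59.2-fold higher. The interferon-induced chemokine Cxcl10 was lower instead, at 335 and 148 CPM (0.443 of normal, 0.409 to 0.478). Within the stromal gate, however, Cxcl10 stood higher, at 23.03 and 225 CPM (9.76-fold, 5.76 to 18.0), while within the epithelial gate it was at 374 and 122 CPM.

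The stretch before the start site is shown for Cxcl1, Cxcl2, Cxcl3 and Il6, since these 4 inflammatory genes stood higher together and their windows hold the pattern named next. Their sequences were taken from RefSeq on GRCm38.p6, and each covers the 250 bases before the start site on the plus strand. Capitals mark GGGNNTTNCC on either strand, a pattern bound by NF-kB factors:
Cxcl1: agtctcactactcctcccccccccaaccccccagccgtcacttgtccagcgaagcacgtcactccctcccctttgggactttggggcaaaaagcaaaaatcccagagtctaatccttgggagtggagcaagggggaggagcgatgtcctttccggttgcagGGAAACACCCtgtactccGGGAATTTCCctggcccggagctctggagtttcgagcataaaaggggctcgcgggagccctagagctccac
Cxcl2: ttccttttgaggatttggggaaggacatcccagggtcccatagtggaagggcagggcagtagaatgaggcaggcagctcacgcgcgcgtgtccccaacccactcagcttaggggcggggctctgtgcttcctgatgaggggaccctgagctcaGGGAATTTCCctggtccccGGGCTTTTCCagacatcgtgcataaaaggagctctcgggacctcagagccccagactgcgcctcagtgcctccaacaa
Cxcl3: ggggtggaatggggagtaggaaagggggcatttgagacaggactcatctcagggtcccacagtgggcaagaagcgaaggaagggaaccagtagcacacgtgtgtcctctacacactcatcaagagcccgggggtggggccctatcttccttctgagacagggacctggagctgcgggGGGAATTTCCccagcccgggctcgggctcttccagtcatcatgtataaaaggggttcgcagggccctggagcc
Il6: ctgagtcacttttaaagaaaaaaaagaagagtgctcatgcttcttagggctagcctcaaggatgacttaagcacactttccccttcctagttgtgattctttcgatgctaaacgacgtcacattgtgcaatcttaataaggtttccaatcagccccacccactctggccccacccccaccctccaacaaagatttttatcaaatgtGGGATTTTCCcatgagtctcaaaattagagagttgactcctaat
These windows lie at chr5:90890995-90891244 for Cxcl1, chr5:90903649-90903898 for Cxcl2, chr5:90785851-90786100 for Cxcl3 and chr5:30012864-30013113 for Il6. Counted back from the start site, the pattern began at 89 bases on the minus strand and 71 on the plus strand of Cxcl1. In Cxcl2 it began at 97 and 78 bases, in Cxcl3 at 73 and in Il6 at 44, all on the plus strand. Searched in windows of 300 bases that reach 50 past the start, it was in 3 of the 4 neutrophil attractants with a window, in 2 of 7 monocyte and macrophage chemokines and in 1 of 12 inflammatory cytokines, Il6. Over all genes with a window the share was 1480 of 27025 (5.48%), and over all windows 1575 of 32851 (4.79%). None of the 13 windows found for the 15 leading higher genes held it. The letters describe these windows and do not show that a factor was bound there.

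Lists for the NF-kB and NFAT routes had medians closer to equality with all UMIs. Of 15 genes for NF-kB subunits and their feedback inhibitors 5 stood higher and 0 lower (median 0.62), but the median was 1.24 both with every cell weighing the same and with cells thinned to 500 UMIs. Nfkb1, which encodes the p50 subunit, was at 102 and 378 CPM, and Nfkbia, the inhibitor that NF-kB itself induces, at 737 and 980 CPM. Of 15 genes for calcineurin, NFAT and their targets 4 stood higher, 1 lower and 10 between (median 0.54), with log2 ratios from -1.37 to 2.05. Over all 12427 genes tested 13.9% stood higher and 7.27% lower. The NFAT gene Nfatc1 was at 29.0 and 60.6 CPM (2.09-fold, 1.79 to 2.44). Rcan1, a calcineurin regulator that NFAT induces, was at 32.8 and 70.2 CPM (2.14-fold, 1.85 to 2.48). Both were named after their values were seen. Nfatc1 within the stromal gate was at 19.7 and 63.2 CPM (3.204-fold, 1.77 to 6.37).

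**Figure D4:**
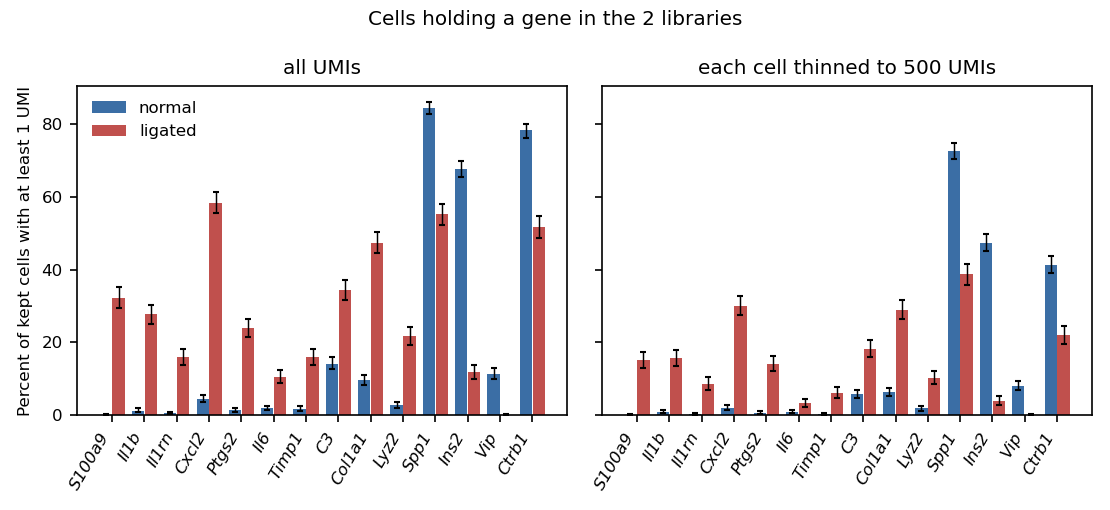
Bars give the percent of kept cells with at least 1 UMI of each gene, with exact 95% binomial intervals, for the normal (blue) and the ligated (red) pancreas, from all UMIs on the left and with each cell thinned to 500 UMIs on the right. Unthinned, Cxcl2 is in 4.46% of normal and 58.5% of ligated cells, and Ins2 in 67.7% and 11.7%.

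Matrix genes stood higher across several lists. All 15 fibroblast genes (median 2.42) and all 13 collagens (3.42) that passed stood higher, with 13 of 16 matricellular genes (3.22) and 12 of 13 genes of elastic fibres and crosslinking (3.27). Col1a1, the main chain of type I collagen, was at 156 and 5500 CPM (35.2-fold, 33.6 to 37.0), and Col3a1 at 259 and 5267 CPM (20.3-fold, 19.6 to 21.1). Fn1, which encodes fibronectin, was at 28.9 and 913 CPM (31.6-fold, 28.2 to 35.4). Lox, the enzyme that crosslinks collagen, was at 5.69 and 97.8 CPM (17.2-fold, 13.2 to 22.6). Timp1, an inhibitor of matrix proteases, was at 4.45 and 475 CPM (107-fold, 80.8 to 144). Acta2, the smooth muscle actin of contractile stroma, was at 1.16 and 54.4 CPM (47.0-fold, 27.1 to 89.4).

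Not every matrix gene did so. Spp1, which encodes osteopontin and was an epithelial-gate gene in these libraries, was the lower member of the matricellular list, at 12769 and 4657 CPM. Lamc3, a laminin chain, was at 36.3 and 3.76 CPM (0.104 of normal, 0.0627 to 0.162), with 87.3% of its normal UMIs in the epithelial gate. The basement membrane list as a whole had 6 of 15 members higher and 1 lower (median 0.58, and -0.13 with gate shares held equal). Of 14 complement genes 13 stood higher (median 2.80). C3, the central complement protein, was at 142 and 1474 CPM (10.4-fold, 9.87 to 11.0).

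Wt1, a transcription factor of mesothelium and of some activated stroma, was at 0.890 and 66.6 CPM (74.9-fold, 40.2 to 157). The 109 ligated cells with a Wt1 UMI were set against mesothelial genes. Of these cells 106 held Dcn, the fibroblast gene decorin, and 108 were in the stromal gate. Of the mesothelial genes Upk3b was in none of them and in 9 of the other 1015 ligated cells. Lrrn4 was in 2 of the Wt1 cells (1.83%), against 7 of the others (0.690%). Upk3b and Lrrn4 had only 11 and 9 UMIs in the ligated library. Rspo1, also on the mesothelial list, went with the Wt1 cells. It was in 15 of them (13.8%), against 8 of the others (0.788%), with 23 of its 36 UMIs in the Wt1 cells. Of the 9 genes on that list 3 passed, with 2 higher and 0 lower (median 2.96, and 2.30 with gate shares held equal). Msln had 0 UMIs in the whole ligated library, so it says nothing about these cells.

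Duct genes stood lower. Of 21 that passed 14 stood lower and 1 higher (median -1.33). The keratin genes Krt18 and Krt8 were at 1742 and 562 CPM (0.322 of normal, 0.310 to 0.335) and at 1670 and 664 CPM (0.398, 0.383 to 0.412). Cftr, the chloride channel of duct cells, was at 111 and 31.2 CPM (0.281, 0.238 to 0.331). Sox9, the transcription factor that maintains ducts, was at 1116 and 420 CPM (0.376, 0.359 to 0.393), and within the epithelial gate at 1310 and 926 CPM (0.709, 0.676 to 0.743). Whole-library levels of this kind cannot tell fewer duct cells from less RNA of a gene per duct cell.

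Acinar enzyme genes stood higher by their UMIs, in 24 of the 29 members that passed (median 1.47), but not by the cells that held them. Ctrb1, a chymotrypsinogen gene, was at 410 and 957 CPM (2.33-fold, 2.24 to 2.43), yet was found in 78.3% of normal and 51.8% of ligated cells. In stromal-gate cells, which should lack it, the shares were 71.1% and 49.7%, at medians of 2011 and 3872.5 UMIs. Its 5 richest cells held 16.4% of the normal and 63.3% of the ligated UMIs, and without them its levels were 344 and 355 CPM. Prss2, a trypsinogen gene, went the same way, at 282 and 641 CPM and in 69.4% and 46.4% of cells. Pnliprp2, a lipase-related gene, was at 8.72 and 92.4 CPM. Of the 10 ligated cells with at least 50 Pnlip UMIs 8 were in no gate. With every cell weighing the same the list's median was -0.074.

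Of 22 genes tied to gastric-type metaplasia or acinar-to-ductal change 12 passed, with 8 higher and 1 lower (median 1.86). The median was 0.86 with no filter on low counts, 0.72 with gate shares held equal and 0.87 with cells thinned to 500 UMIs. Gkn3, a stomach gastrokine, was at 0.978 and 39.5 CPM but was found in only 0.801% of ligated cells. Dmbt1, a mucosal scavenger protein, was at 3.83 and 116 CPM and in 3.02% of ligated cells. Muc6, a gland mucin, was at 0 and 6.40 CPM, in 0.445% of ligated cells. Clu, the stress-linked chaperone clusterin, was at 5417 and 2806 CPM in the whole library and at the same level within the epithelial gate (ratio 1.00, 0.982 to 1.02).

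Islet genes split by hormone, and each hormone rested on a handful of cells. Of 22 members that passed 7 stood higher and 10 lower (median -0.32). The median was 0.60 with gate shares held equal and -1.42 with cells thinned to 500 UMIs, and within the epithelial gate 11 of 23 stood higher and 6 lower (0.90). A single normal cell held 34452 of the 56741 Ins2 UMIs, and without the 5 richest cells of each library Ins2 was at 913 and 30.6 CPM. Ins2 was still found in 67.7% of normal and 11.7% of ligated cells, and in 62.2% of normal stromal-gate cells, which should lack it. Those stromal-gate cells had a median of 2011 UMIs, against 4600 in the normal epithelial gate, where the share was 65.9%. Gcg, the gene of glucagon, stood the other way, at 67.1 and 3602 CPM (53.7-fold, 49.9 to 57.8), but 5 ligated cells held 99.8% of its UMIs. Without them and the 5 richest normal cells Gcg was at 18.6 and 8.22 CPM. Pyy, a peptide hormone gene of islet and gut endocrine cells, was at 14.5 and 252 CPM and was found in 0.356% of ligated cells.

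Vip marked a set of normal cells that held neuronal genes. In the normal library 110 cells held at least 3 Vip UMIs, at a median of 1177.5 UMIs per cell, 88 of them in no gate and 22 in the epithelial gate. Any Vip UMI was found in 24.2% of the ungated cells, at a median of 689 UMIs, and in 7.04% of the epithelial-gate cells, at a median of 4600. Of these 110 cells 91 held Snap25, a synaptic release gene, 97 the neuronal transcript Snhg11 and 85 Npy, the neuropeptide Y gene. The choline transporter gene Slc5a7 was in 56 of them, against 5 of the other 1662 normal cells. The glial gene Sox10 was in 0. All 110 cells also held Ins2, against 1089 of the others (65.5%). Chga, an islet gene, was in 14 of the 110, against 67 of the others (4.03%). Epcam, an epithelial gene, was in 27 of the 110, against 806 of the others (48.5%). The part of free RNA in these shares was not tested. In the ligated library Vip and Slc5a7 had 0 UMIs. A neuronal list drawn up after these values were seen had 10 of 13 members lower and 0 higher (median -2.54). Without the 110 cells that list's median was 0.85. Under the stricter cell filter it was 0.015. Which region of the gland each library came from is not given here, and sampling and ligation cannot be told apart with 1 library each.

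Blood endothelial genes stood between or lower in most cases and lymphatic genes mostly higher. Of 16 blood endothelial genes 4 stood lower and 1 higher (median -0.58), while 5 of 7 lymphatic genes stood higher (median 1.30). Plvap, the gene of fenestrated capillary diaphragms, was at 166 and 63.4 CPM (0.381 of normal, 0.338 to 0.428). Cyp26b1, which breaks down retinoic acid, was at 51.3 and 6.02 CPM (0.117, 0.0795 to 0.167), and within the endothelial gate at 838 and 43.6 CPM. Mmrn1, a lymphatic gene, was at 4.45 and 32.5 CPM (7.32-fold, 5.31 to 10.2). Prox1, the transcription factor that sets lymphatic identity and is also made by duct cells, was at 367 and 267 CPM in the whole library. Within the endothelial gate Prox1 was at 26.8 and 1217 CPM, found in 2.59% and 29.7% of cells, while within the epithelial gate it was at 429 and 430 CPM.

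Genes by which leukocytes hold on to vessel walls stood higher in 9 of 11 cases (median 2.67). The list holds genes of both partners, and its leading members Itgam (0.356 and 40.8 CPM) and Itgb2 (1.78 and 32.9 CPM) encode integrin chains of the leukocyte itself. Of genes for vessel-wall partners, Vcam1 was at 16.6 and 111 CPM in the whole library (6.67-fold, 5.65 to 7.91). That level does not tell which cells held it. Selp, which encodes P-selectin, was at 361 and 1157 CPM within the endothelial gate (3.21-fold, 2.70 to 3.81) and Sele, which encodes E-selectin, at 26.8 and 255 CPM (9.51-fold, 5.57 to 17.2). Icam1, another vessel-wall partner, did not reach 2-fold in the whole library, at 224 and 252 CPM.

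Lists that follow cell state or handling stood close to equality in most cases. Of 20 interferon response genes 3 stood higher and 0 lower (median 0.16). The 20 immediate-early genes had 5 higher and 1 lower (-0.18, and 0.61 with cells thinned to 500 UMIs), the 13 heat shock genes 1 higher and 0 lower (-0.26) and the 18 hypoxia and glycolysis genes 3 higher and 1 lower (0.06). Of 17 cell cycle genes 11 stood higher (median 1.38), with Mki67 at 5.16 and 16.4 CPM, found in 0.508% and 1.87% of cells. Among cell cycle genes at 50 CPM or more the median was -0.28. The respiratory chain was the exception on the lower side, with 8 of 14 genes lower and 0 higher (median -1.01, and -0.61 with gate shares held equal). Within the epithelial gate 1 of the 14 stood lower (-0.81), within the endothelial gate 3 (-0.62) and within the leukocyte gate 2 (-0.47). The stromal gate had 0 lower and 1 higher (0.16).

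With the UMI share of each gate held equal in the libraries, 739 genes stood higher and 320 lower. Of the 1724 genes that stood higher with all UMIs 647 kept their call, and of the 904 lower genes 190 did. Of 54 lists with at least 3 members tested, 34 had a median at or beyond 1 either way with all UMIs. With gate shares held equal 23 of these were under 1. The neutrophil median was then 4.12 and that of neutrophil attractants 2.41, against 0.61 for fibroblast genes, 0.93 for collagens, 0.43 for complement and -0.36 for duct genes. Panel genes, by which the gates were cut, count in these medians, unlike in the values within gates. Within the epithelial gate the median of the 14 duct genes outside the panel was -0.01. How far panel genes moved the medians was not tested. With gate shares held equal S100a9 was at 0 and 448 CPM, Il1b at 32.5 and 307, Timp1 at 13.4 and 277, and Krt18 at 1322 and 837. The calculation was added after the data were seen, and it leaves any change in the kinds of cells inside a gate. Inside the leukocyte gate, with 28 normal cells, the neutrophil median was 8.03, and among cells in no gate it was 6.72. How much such changes make up of the values on that scale was not tested.

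Within the stromal gate 1295 of 11095 genes stood higher (11.7%) and 956 lower (8.62%). Timp1 was at 55.9 and 1228 CPM there (21.9-fold, 15.7 to 31.8), Postn, the gene of periostin, at 34.5 and 630 (18.2-fold, 11.9 to 29.6) and Wt1 at 14.8 and 177 (12.0-fold, 6.23 to 26.4). Saa3 had 0 UMIs and 824 CPM, at least 167-fold higher. Of 10 inflammatory cytokines that passed in the gate 5 stood higher and 1 lower (median 0.96), and of 10 monocyte and macrophage chemokines 6 stood higher and 1 lower (2.83). Il6 was at 57.6 and 330 CPM (5.74-fold, 4.08 to 8.31) and Ccl2 at 67.5 and 458 CPM (6.79-fold, 4.96 to 9.52). Il1r1 was at 82.3 and 152 CPM (1.84-fold, 1.36 to 2.54), and Cxcl1 at 500 and 1052 CPM (2.10-fold, 1.86 to 2.38). Of 11 collagens outside the panel 4 stood higher and 0 lower (median 0.69), while 12 of 19 cell cycle genes stood higher and 0 lower (median 2.65).

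Some stromal genes stood lower in that gate. Apod, a lipid-binding apolipoprotein of resting fibroblasts, was at 660 and 75.3 CPM (0.114 of normal, 0.0940 to 0.138), and Cxcl14, a chemokine of resting stroma, at 517 and 83.3 CPM (0.161, 0.133 to 0.195). The basement membrane list had 4 of 13 members lower and 0 higher in the gate (median -0.53), where the whole library had 6 of 15 higher.

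Within the leukocyte gate 1276 of 6131 genes stood higher (20.8%) and 794 lower (13%), from only 28 normal cells. Il1b was at 697 and 4785 CPM (6.87-fold, 5.45 to 8.76), Il1rn at 158 and 963 (6.10-fold, 3.76 to 10.6) and Il1r2 at 9.29 and 876 (94.3-fold, 16.8 to 3734). Of 12 neutrophil genes 11 stood higher (median 8.03), and of 16 macrophage genes 2 stood higher and 2 lower (0.36). Of 8 genes for presenting antigen on MHC class II 7 passed, of which 5 stood lower and 0 higher (median -1.28), where 6 of 7 had stood higher in the whole library (1.52) and the median with gate shares held equal was -0.62. Cd74, the invariant chain of that complex, was at 8280 and 3002 CPM in the gate and at 110 and 351 CPM in the whole library. B cell genes were lower in 6 of 7 cases (-3.0).

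Within the epithelial gate 544 of 11254 genes stood higher (4.83%) and 242 lower (2.15%). Of 14 duct genes outside the panel 2 stood higher and 0 lower (median -0.01). Apoe was at 9535 and 3501 CPM (0.367 of normal, 0.359 to 0.376), Ankrd1, a stretch-responsive nuclear cofactor, at 400 and 147 CPM (0.366, 0.326 to 0.411) and Igfbpl1 at 53.6 and 7.24 CPM (0.135, 0.0767 to 0.222). Cxcl2 was at 61.4 and 208 CPM (3.38-fold, 2.99 to 3.83) and Cxcl1 at 138 and 257 CPM (1.87-fold, 1.69 to 2.06). Of 5 neutrophil genes that passed here 4 stood higher, with S100a9 at 0 and 46.6 CPM, against 7963 CPM in the ligated leukocyte gate. The part of free RNA in these levels was not tested.

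Within the endothelial gate 1579 of 8842 genes stood higher (17.9%) and 894 lower (10.1%). All 7 lymphatic genes passed, and 5 stood higher and 0 lower (median 2.32), while 5 of 8 blood endothelial genes outside the panel stood lower and 0 higher (-1.05). Of 20 interferon response genes 14 stood lower and 1 higher (median -1.13), where the stromal gate had 8 higher and 0 lower (0.65). Fabp4, a fatty acid carrier of capillaries, was at 4555 and 1043 CPM (0.229 of normal, 0.203 to 0.257).

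**Figure D5:**
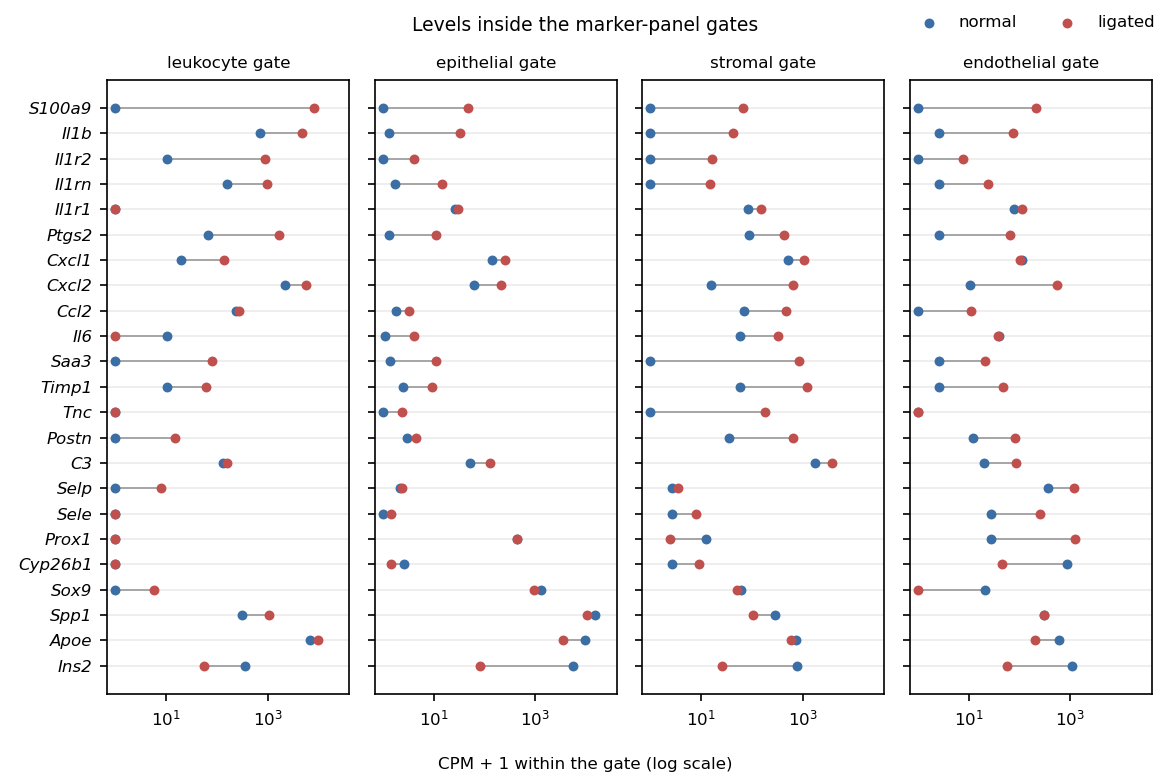
Each row is a gene and each panel a gate; points give CPM + 1 within the gate on a log scale for the normal (blue) and the ligated (red) pancreas, joined by a line. Il1b lies highest in the leukocyte gate, Timp1 and Saa3 in the stromal gate, and Prox1 lies at 26.8 and 1217 CPM in the endothelial gate but at 429 and 430 CPM in the epithelial gate.

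The tumour libraries were taken from pancreas as well and scaled the same way, without entering the comparison. Il1b was at 3039 CPM in the control tumour and 3405 CPM in the AF12198-treated tumour, Timp1 at 349 and 206 CPM, and Vip at 0.0218 and 0.0327 CPM.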

How the data were processed

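Droplet single-cell RNA sequencing measured gene expression in 4 mouse libraries, of which the normal and the suture-ligated pancreas were compared. The authors deposited UMI counts per gene and cell barcode, made with Cell Ranger 6.0.0 on mm10 per the submitters' processing notes, with 32285 genes in each matrix; the annotation is not given in the sources used here.

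Counts were summed over kept cells (at least 500 UMIs, 250 genes, at most 20% mitochondrial UMIs) and scaled to CPM. Ratios of CPM carry exact conditional intervals, shares of cells exact binomial (Clopper-Pearson) intervals, both 95% and for counting error only. List counts and medians cover the members that passed the count filter, and medians use log2 of CPM with a pseudocount of 1. A ratio against 0 UMIs uses a floor of 3 UMIs per library, and 0 UMIs in a library allows up to 0.267 CPM (normal) or 0.564 CPM (ligated). With 1 library a group no test was made, and cells were not treated as replicates. Marker-panel gates were cut as given in the text, and no doublet caller was run.

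Genes were named as the 15 largest and the 15 smallest ratios by the interval bound nearest 1 among genes at 20 CPM or more (without Gm42418, AY036118, mitochondrial and predicted genes). Also named were the 3 farthest members and the 2 with the most UMIs of each list (all members of lists of up to 8 genes), the 5 genes with the most UMIs per library, and the ligands and receptors of IL-1. Csf3r, Il6, Nfatc1, Rcan1, Postn, Prss2, Pyy, Mki67, Selp, Sele, Apod, Cxcl14 and the genes counted within the cells holding Il1b, Igkc, Pnlip, Vip or Wt1 were chosen after their values were seen. Members and lists were chosen with earlier results of these data known. The interval script was tested on simulated data. Python 3.11.15, NumPy 2.4.6, SciPy 1.17.1 and pandas 2.3.3 were used, and R 4.3.3 with edgeR 4.0.16 and DESeq2 1.42.0 for alternative scalings only.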

Additional observations from a re-analysis of the deposited data

How the results depend on the processing

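No paired analysis was possible because each group is 1 library, and for the same reason no replicate could be left out. Against 1724 genes higher and 904 lower with all UMIs, there were 6139 and 1675 with no filter on low counts, 471 and 340 at 50 CPM or more, and 857 and 80 at 4-fold; fewer or more genes enter these by construction. At 1.5-fold 2546 stood lower, with every cell weighing the same 1362, and with every cell thinned to 500 UMIs 1490. Among alternatives added after the data were seen, 739 and 320 stood past 2-fold with gate shares held equal, and 1446 stood lower without each gene's 5 richest cells. The cause of these shifts was not tested. TMM scaling, DESeq2 size factors, no cell filter and the stricter cell filter left both counts within 1.5 times. The gate ratios that moved were 5.09 for leukocytes with the stricter cell filter (added after seeing the data), 0.409 for epithelium and 0.462 for endothelium at 90% of panel UMIs, and 0.346 for epithelium after thinning. The ratio of cells in no gate, 0.979, became 0.802 at 60%, 1.14 at 90% of panel UMIs and 2.52 with the stricter cell filter. Of 796 list medians under an alternative, 509 lay between the median lower and the median upper interval bound of the list's members. The others lay outside. These bounds take no pseudocount and are not an interval of the list median. For neutrophil genes they were 5.75 and 11.7, so the first value, 4.87, lay outside them itself, and a small shift counted as outside. Of the 796 medians 56, from 17 lists, had the other sign. Among lists that first stood at or beyond 1 either way, 7 medians from 5 lists did: acinar genes to -0.074 with every cell weighing the same and -0.012 thinned, NK genes to -0.52 and MHC class II genes to -0.62 with gate shares held equal, cell cycle genes to -0.28 at 50 CPM or more, and neuronal genes to 0.015 with the stricter cell filter and 0.85 without the cells with at least 3 Vip UMIs. The other 49 came from 12 lists under 1: islet genes reached 0.60 and basement membrane genes -0.13 with gate shares held equal, B cell genes -1.19 (3 alternatives), lymphocyte and dendritic cell attractants -0.72 (3), immediate-early genes 0.61 (4), interferon response genes -0.27 (4), hypoxia and glycolysis genes -0.032 (1), EGF family genes 0.54 (7), lipid and steroid handling genes -0.72 (9), oxidative stress genes -0.29 (4), angiogenic and tip cell genes -0.54 (6) and ER stress genes 0.17 (6). Of 36 ratios of shares of single genes 27 stayed within their interval and 9 moved. Depth limits genes at few UMIs: 1 UMI is 0.0890 CPM in the normal and 0.188 CPM in the ligated library, and the leukocyte gate rests on 28 normal cells.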

Other observations

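Protease, pericyte, acute-phase and lipid genes outside the text's main groups gave further values. Of 18 genes for matrix proteases and their inhibitors 11 stood higher and 0 lower in the whole library (median log2 ratio 1.53), with Mmp2, a gelatinase of stroma, at 24.3 and 284 CPM and Mmp9, a gelatinase of neutrophils, at 1.42 and 22.6 CPM in the normal and the ligated library. Of 10 pericyte and smooth muscle genes 9 stood higher (median 1.92, and 0.23 with gate shares held equal), with Rgs5, a pericyte signalling regulator, at 46.7 and 167 CPM. Of 16 acute-phase genes 8 passed, with 6 higher and 0 lower (2.84, and 0.90 with no filter on low counts). Hp, which encodes haptoglobin, was at 1.60 and 86.7 CPM and Ptx3, a long pentraxin, at 0.267 and 30.3 CPM. Of 14 TGF-beta family and response genes 7 stood higher and 0 lower (0.76). Of 15 genes for handling lipids and steroids 4 stood higher and 4 lower.

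Neat1, a nuclear RNA, was at 358 and 1142 CPM (3.19-fold, 3.07 to 3.32), and Gm42418 at 74486 and 149592 CPM (2.01-fold, 2.002 to 2.014). The same ligated library had the lower median mitochondrial share, 1.25% against 2.18%.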
